A study of Danio rerio with 9 samples.

Results

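Rods are the photoreceptors of dim light, and the genes described here encode parts of their light response: the transducin subunits gnat1 and gngt1, the phosphodiesterase subunits pde6a, pde6b and pde6ga, the shut-off proteins grk1a, saga and sagb, the disc protein rom1a and the rod transcription factor nr2e3. They were chosen by symbol, and all 10 were present among 21109 genes and transcripts of the deposited table. The RNA, polyA-selected and sequenced, came from zebrafish embryos, and the labels give the tissue as trunk. The libraries form 3 groups. Embryos of the first received an antisense morpholino (MO) against sf3b1, a gene of the U2 spliceosome particle, together with As2S2, an arsenic sulfide (sf3b1 MO + As2S2, 3 libraries). Those of the second received the sf3b1 morpholino alone (sf3b1 MO, 3 libraries), and those of the third a control morpholino (control MO, 3 libraries). The titles thus describe morphants, whereas the series text speaks of a knockout. Strain, embryo age, doses and the number of embryos pooled per library are not in the labels used here. The series was made to study red blood cell maturation, and the eye was not its subject.

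In a rod, light-activated rhodopsin switches on transducin, whose alpha subunit relieves the inhibition of the cyclic GMP phosphodiesterase; the fall in cyclic GMP closes channels of the outer segment. The response is ended by rhodopsin kinase, which phosphorylates the active pigment, and by arrestin, which then caps it. Cones use a parallel set of proteins encoded by sister genes, and in zebrafish many of these genes exist as duplicated pairs. Crx, Nrl and Nr2e3 are transcription factors of this program; in mouse, Nr2e3 holds cone genes off in rods and acts with Nrl and Crx on rod genes.

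Expression was read as FPKM (sequenced fragments relative to transcript length and library size), deposited for all 9 libraries, and as whole-number counts, deposited for the sf3b1 MO and control MO libraries. Total counts ranged from 21942696 to 28702980 in those 6 libraries. No counts, and so no depth, could be had for the As2S2 libraries. The targeted gene did not settle the labels: sf3b1 stood at 877 ± 20.3 CPM (counts scaled to library size) in the libraries labelled sf3b1 MO and at 541 ± 5.92 CPM in control MO (SD, n = 3 each; log2 fold change 0.70, edgeR adjusted p = 2e-10), while its FPKM ran the other way, at 169 ± 2.27 in sf3b1 MO + As2S2, 108 ± 1.75 in sf3b1 MO and 171 ± 4.68 in control MO. None of the 10 rod genes had such a mismatch, since their FPKM per count varied by an SD of at most 0.035 on the log2 scale over the 6 libraries with counts. This could not be checked in the As2S2 libraries. Rod and lens transcripts were plentiful in these libraries labelled as trunk, with rho, the rod opsin, at 70.8 ± 2.2 FPKM in sf3b1 MO + As2S2, 809 ± 12.2 FPKM in sf3b1 MO and 929 ± 49.3 FPKM in control MO (SD, n = 3 each). In such bulk samples, fewer rods and less RNA per rod cannot be told apart. The labels do not state whether the 3 libraries of a group derive from different clutches; the p-values therefore refer to the spread among these libraries alone, which may be technical.

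Levels of the rod genes spanned a wide range. In sf3b1 MO + As2S2, nr2e3 came first at 19.1 ± 1.79 FPKM, followed by sagb at 7.64 ± 0.665 FPKM. Next stood gngt1 at 3.73 ± 0.697 and gnat1 at 3.68 ± 0.914 FPKM, whose libraries overlapped, and then saga at 2.25 ± 0.148 and pde6a at 2.11 ± 0.0706 FPKM, which overlapped too. The remaining 4 genes, grk1a, rom1a, pde6b and pde6ga, stayed under 1 FPKM in each As2S2 library. In sf3b1 MO, sagb led at 72.9 ± 2.76 FPKM, gngt1 at 35.4 ± 2.95 and gnat1 at 33.3 ± 1.77 FPKM overlapped behind it, and saga followed at 20.6 ± 1.08 FPKM. There nr2e3 came after saga, at 8.87 ± 0.0869 FPKM. In control MO the order was sagb (82.3 ± 4.05 FPKM), gnat1 (38.6 ± 2.07), gngt1 (22.8 ± 1.57), saga (15.5 ± 0.697) and nr2e3 (13.1 ± 1.05), with no overlap between neighbours. Below them grk1a, rom1a and pde6a overlapped in control MO at 5.76 ± 0.429, 4.98 ± 0.443 and 4.94 ± 0.528 FPKM, and pde6b and pde6ga closed the order at 3.24 ± 0.458 and 1.51 ± 0.027 FPKM.

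**Figure D1:**
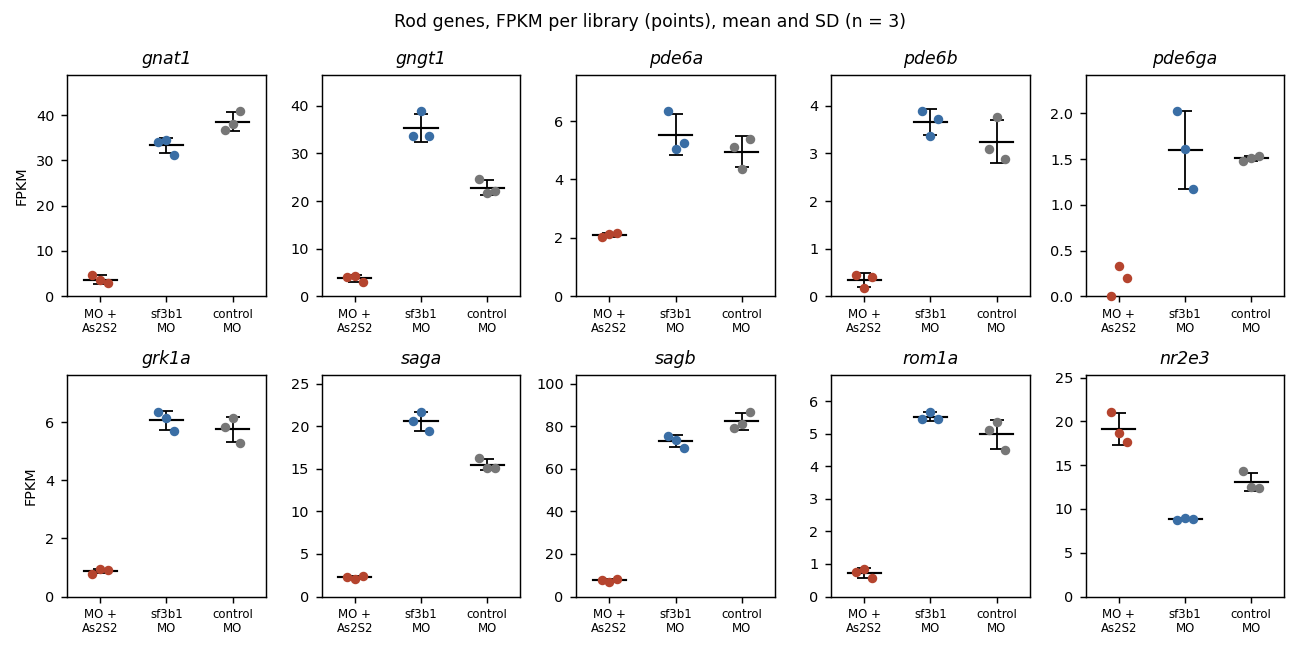
FPKM of the 10 rod genes in each library (points), with the mean (horizontal bar) and SD of the 3 libraries of a group; each panel has its own linear axis from 0, and no mean is drawn where a library is listed at 0. In 9 panels the As2S2 libraries lie below the other 6, and in the nr2e3 panel they lie above them, at 17.6 to 21.1 FPKM. Of the 9, pde6b, pde6ga, grk1a and rom1a were under 1 FPKM in each As2S2 library and had to differ. Over all genes tested, the As2S2 libraries did not overlap those of sf3b1 MO in 65.9% (46.8% lower) and those of control MO in 72.1% (51.1% lower).

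The first comparison asks what As2S2 did on the background of the sf3b1 morpholino. Genes of the rod light response were far lower with As2S2. The arrestin gene sagb stood at 10.5% of its sf3b1 MO mean FPKM, and the transducin genes gnat1 and gngt1 at 11.0% and 10.5%. Of the catalytic subunit genes, pde6a stood at 38.1% and pde6b at 9.18%. However, pde6b, pde6ga, grk1a and rom1a were under 1 FPKM in each As2S2 library. They entered the test only through the groups in which they were higher, so their values here and below are description. The transcription factor gene nr2e3 went the opposite way and stood at 216% of its sf3b1 MO mean. Changes were tested with limma on log2(FPKM + 1) over 18013 genes, and p-values were adjusted over all of them. The median gene moved by -0.20 on this scale, so fold changes are given relative to the median gene, while calls (adjusted p under 0.05) refer to the unshifted values.

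Both transducin genes were lower in sf3b1 MO + As2S2. gnat1 (ENSDARG00000044199), which encodes the rod alpha subunit, had 4.65, 3.55 and 2.83 FPKM in sf3b1 MO + As2S2, against 34.1, 34.5 and 31.3 FPKM in sf3b1 MO. Its relative log2 fold change was -2.69 (SE 0.119, limma adjusted p = 2.8e-08). The gene of the gamma subunit, gngt1 (ENSDARG00000035798), had 4.03, 4.22 and 2.93 FPKM in sf3b1 MO + As2S2, against 33.7, 38.8 and 33.7 FPKM in sf3b1 MO. This is a relative log2 fold change of -2.75 (SE 0.108, limma adjusted p = 1.1e-08). For either gene, the highest As2S2 library was below the lowest sf3b1 MO library by a wide margin.

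Among the phosphodiesterase genes, pde6a and pde6b, which encode the catalytic alpha and beta subunits, were both lower, at 38.1% and 9.18% of their sf3b1 MO means. pde6a (ENSDARG00000000380) had 2.03, 2.13 and 2.17 FPKM in sf3b1 MO + As2S2, against 6.33, 5.04 and 5.25 FPKM in sf3b1 MO (relative log2 fold change -0.87, SE 0.10, limma adjusted p = 8.5e-06). pde6b (ENSDARG00000011671) had 0.439, 0.164 and 0.405 FPKM in sf3b1 MO + As2S2, against 3.88, 3.36 and 3.73 FPKM in sf3b1 MO (-1.60, SE 0.117, limma adjusted p = 6.1e-07). The groups of pde6a did not overlap. Those of pde6b did not either, but pde6b was under 1 FPKM in each As2S2 library, so its values are description. The inhibitory subunit gene pde6ga (ENSDARG00000056791) was the least abundant of the set, and its values are description too. It was listed at 0 in 1 As2S2 library and had 0.332 and 0.198 FPKM in the others, against 2.02, 1.61 and 1.17 FPKM in sf3b1 MO (-0.94, SE 0.140, limma adjusted p = 5.8e-05). A pseudocount of 1 compresses changes at such levels: with 0.1 in its place the relative log2 fold changes were -2.92 for pde6b and -2.57 for pde6ga, whereas pde6a moved only to -1.09.

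The genes that end the light response fell too. sagb (ENSDARG00000038378), 1 of 2 rod arrestin genes of zebrafish, had 7.94, 6.88 and 8.1 FPKM in sf3b1 MO + As2S2, against 75.3, 73.5 and 69.8 FPKM in sf3b1 MO. Its relative log2 fold change of -2.90 (SE 0.062, limma adjusted p = 1.7e-10) was the lowest of the 10 genes. Its sister gene saga (ENSDARG00000012610) had 2.24, 2.11 and 2.41 FPKM in sf3b1 MO + As2S2, against 20.6, 21.7 and 19.5 FPKM in sf3b1 MO (-2.53, SE 0.066, limma adjusted p = 6.3e-10). The libraries of each group lay close together for both arrestin genes, and the groups did not overlap. grk1a (ENSDARG00000058803), the rod rhodopsin kinase gene, had 0.792, 0.934 and 0.913 FPKM in sf3b1 MO + As2S2, against 6.36, 6.13 and 5.7 FPKM in sf3b1 MO (-1.71, SE 0.084, limma adjusted p = 4e-08; -2.40 with a pseudocount of 0.1). It stood at 14.5% of its sf3b1 MO mean. Under 1 FPKM in each As2S2 library, grk1a entered the test only through the other groups, so its values are description.

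The disc gene moved with the light-response genes and the transcription factor gene against them. rom1a (ENSDARG00000019752) encodes a membrane protein of the rims of outer segment discs. Its values are description, since it was under 1 FPKM in each As2S2 library. It had 0.756, 0.843 and 0.555 FPKM in sf3b1 MO + As2S2, against 5.45, 5.67 and 5.44 FPKM in sf3b1 MO (-1.72, SE 0.095, limma adjusted p = 8.8e-08; -2.54 with a pseudocount of 0.1). nr2e3 (ENSDARG00000045904) had 21.1, 18.7 and 17.6 FPKM in sf3b1 MO + As2S2, against 8.79, 8.96 and 8.84 FPKM in sf3b1 MO. Every As2S2 library of nr2e3 was above every sf3b1 MO library, with a relative log2 fold change of 1.23 (SE 0.076, limma adjusted p = 1.6e-06).

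Changes were common in this comparison, and the counts must be read against that. Of all genes tested, 61.9% were called, 44.6% lower and 17.3% higher, and the libraries of the groups did not overlap in 65.9%, of which 46.8% of all genes were lower and 19.1% higher. Of the 6 rod genes at 1 FPKM or more in all 9 libraries, gnat1, gngt1, pde6a, saga and sagb were called lower and nr2e3 higher. The other 4, pde6b, pde6ga, grk1a and rom1a, entered the test only through the groups in which they were higher, so that they had to differ, and their calls are given as description. After each library was centred on its median, the split of all calls moved from 3119 higher and 8027 lower to 5448 higher and 4928 lower. The 6 rod genes at 1 FPKM or more in all 9 libraries were called in the same directions in either case.

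**Figure D2:**
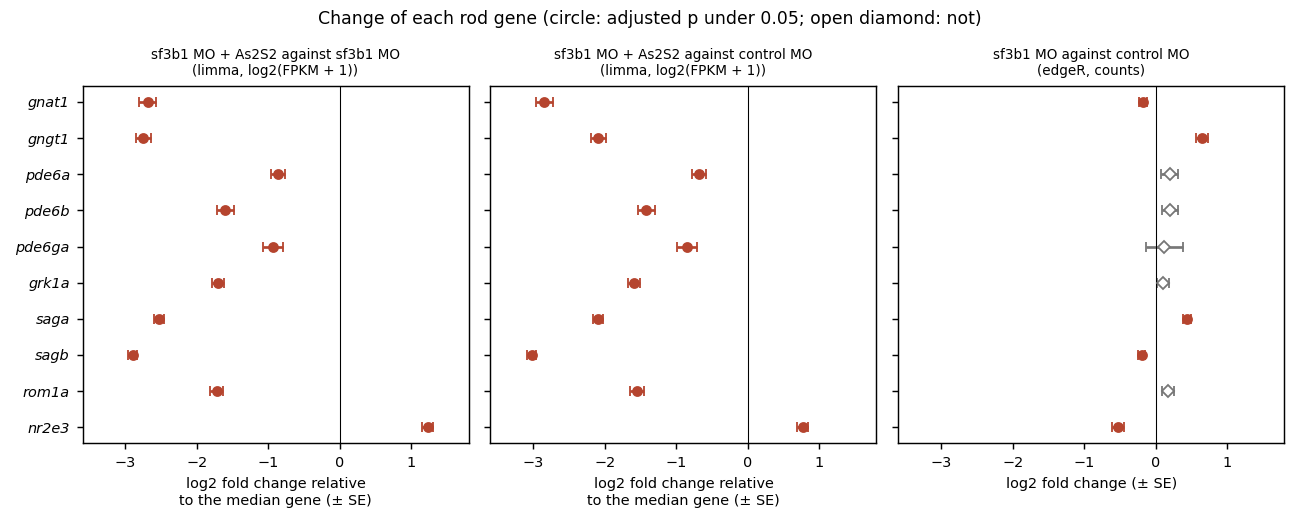
Log2 fold change of each rod gene (points, ± SE) in the 3 comparisons, with filled circles for an adjusted p under 0.05 and open diamonds otherwise. In the As2S2 panels the circles of pde6b, pde6ga, grk1a and rom1a are description. These genes were under 1 FPKM in each As2S2 library and entered the test only through the other groups. Both As2S2 panels show limma values on log2(FPKM + 1) relative to the median gene, from -3.02 to 1.23; the panel of sf3b1 MO against control MO shows edgeR values from counts, from -0.53 to 0.65.

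The second comparison sets sf3b1 MO + As2S2 against control MO, with the same As2S2 libraries as the first, so its values are no second observation of the change. Rod genes of the light response stood between 9.28% (sagb) and 42.7% (pde6a) of their control MO means, leaving aside pde6ga, which has a library listed at 0. nr2e3 stood at 147%. Relative to the median gene, which moved by -0.25, the log2 fold changes were -3.02 (SE 0.062) for sagb, -2.85 (SE 0.119) for gnat1, and -2.09 for both saga (SE 0.066) and gngt1 (SE 0.108), with limma adjusted p from 5.7e-11 to 3.4e-08.

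In control MO gnat1 had 36.7, 38.1 and 40.8 FPKM and sagb had 79.1, 80.9 and 86.8 FPKM, all above the As2S2 libraries given before. grk1a (5.83, 6.15 and 5.3 FPKM in control MO), rom1a (5.11, 5.35 and 4.49 FPKM) and pde6b (3.1, 3.76 and 2.88 FPKM) gave -1.60 (SE 0.084), -1.55 (SE 0.095) and -1.42 (SE 0.117), with limma adjusted p of at most 7.8e-07. pde6a, at 5.1, 4.36 and 5.38 FPKM in control MO, gave -0.68 (SE 0.10, limma adjusted p = 1.7e-05), and pde6ga, at 1.48, 1.51 and 1.53 FPKM, gave -0.85 (SE 0.140, limma adjusted p = 5.8e-05). Of these genes, grk1a, rom1a, pde6b and pde6ga were under 1 FPKM in each As2S2 library, so their values are description. With a pseudocount of 0.1, pde6b and pde6ga again moved by more than 1.5 times, to -2.69 and -2.47, and rom1a to -2.34. nr2e3 had 14.3, 12.5 and 12.4 FPKM in control MO, below each As2S2 library, and was called higher (0.77, SE 0.076, limma adjusted p = 0.00017).

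Of the 6 rod genes at 1 FPKM or more in all 9 libraries, 5 lay lower without overlap and nr2e3 higher; pde6b, pde6ga, grk1a and rom1a are set aside here too, since they entered the test through the groups without As2S2. Over all genes tested, the groups did not overlap in 72.1% (51.1% lower, 21.0% higher), and 68.1% were called (48.6% lower, 19.5% higher). Centring each library on its median turned the split of all calls from 3519 higher and 8750 lower to 6283 higher and 5063 lower. The directions of the 6 rod genes at 1 FPKM or more in all 9 libraries were kept.

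The third comparison asks how the sf3b1 morpholino alone differed from control MO, and here rod genes were called in either direction. The arrestin gene saga and the transducin gene gngt1 were higher in sf3b1 MO, their partners sagb and gnat1 were slightly lower, and nr2e3 was lower by more. The phosphodiesterase genes, grk1a and rom1a did not pass the test. Counts were used, with edgeR over 20723 genes, of which 51.1% were called, 25.2% higher and 25.9% lower. The 5 calls among the 10 rod genes, 2 higher and 3 lower, are thus about the share of genes called overall.

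gngt1 had 32.1, 36.8 and 32.5 CPM in sf3b1 MO, against 23.4, 20.6 and 20.8 CPM in control MO. Its log2 fold change was 0.65 (SE 0.086, edgeR adjusted p = 3.4e-05), the highest of the set, with each sf3b1 MO library above each control MO library. gnat1, the partner of gngt1 in transducin, had 73.6, 74.9 and 68.2 CPM in sf3b1 MO, against 78.8, 81.0 and 86.4 CPM in control MO (-0.18, SE 0.055, edgeR adjusted p = 0.013). This small fall was not firm: without the third control MO library the edgeR adjusted p was 0.0792, without the third sf3b1 MO library it was 0.0501, and limma on FPKM gave an adjusted p of 0.174.

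The arrestin genes parted in the same way. saga had 76.5, 81.0 and 73.2 CPM in sf3b1 MO, against 60.1, 55.3 and 54.9 CPM in control MO (log2 fold change 0.44, SE 0.058, edgeR adjusted p = 3.6e-05). sagb had 87.0, 84.7 and 82.8 CPM in sf3b1 MO, against 92.5, 95.6 and 103 CPM in control MO (-0.20, SE 0.051, edgeR adjusted p = 0.0057). In neither gene did the groups overlap. nr2e3 had 437, 466 and 527 counts in sf3b1 MO, against 931, 712 and 737 counts in control MO, or 20.3 ± 0.26 CPM in sf3b1 MO and 29.3 ± 2.56 CPM in control MO (SD, n = 3 each; -0.53, SE 0.086, edgeR adjusted p = 0.00019). Its highest sf3b1 MO library was below its lowest control MO library.

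The genes that missed the threshold had small estimated changes. rom1a averaged 29.2 ± 0.704 CPM in sf3b1 MO and 25.9 ± 2.38 CPM in control MO (0.17, SE 0.084, edgeR adjusted p = 0.1), with its groups not overlapping. Over all genes tested the groups did not overlap in 60.1%, 29.3% with sf3b1 MO higher and 30.8% with sf3b1 MO lower; among the rod genes it was 3 higher and 3 lower. pde6b averaged 22.6 ± 1.59 CPM in sf3b1 MO and 19.6 ± 2.76 CPM in control MO (0.20, SE 0.109, edgeR adjusted p = 0.14; called without the second control MO library, at 0.32 and an adjusted p of 0.0277). pde6a averaged 18.7 ± 2.23 CPM in sf3b1 MO and 16.3 ± 1.77 CPM in control MO, and grk1a 27.2 ± 1.37 and 25.3 ± 1.95 CPM (0.19, SE 0.116, and 0.10, SE 0.085; edgeR adjusted p = 0.18 and 0.34). pde6ga rested on 60, 50 and 42 counts in sf3b1 MO and 58, 51 and 54 counts in control MO (0.12, SE 0.259, edgeR adjusted p = 0.73), so a change well above its estimate was not detectable at this depth. The log2 fold changes of the authors' deposited table had the same sign as these in 10 of 10 genes, and its adjusted p fell on the same side of 0.05 in 10 of 10.

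Partners within the rod pathway could be set against each other inside each library, which leaves library scaling out. The ratios were picked after the values were seen, 7 ratios in 3 comparisons give 21 exact permutation tests, and 3 libraries against 3 cannot reach a p below 0.1. The FPKM ratio of gngt1 to gnat1 was 0.868, 1.19 and 1.04 in sf3b1 MO + As2S2, 0.989, 1.12 and 1.08 in sf3b1 MO, and 0.669, 0.568 and 0.541 in control MO. The ratio of sagb to saga was 3.55, 3.26 and 3.37 in sf3b1 MO + As2S2, 3.66, 3.39 and 3.58 in sf3b1 MO, and 4.85, 5.35 and 5.76 in control MO. Both ratios overlapped between the sf3b1 MO groups with and without As2S2 and were separate from control MO in either group. The differences of mean log2 ratio between sf3b1 MO + As2S2 and sf3b1 MO were -0.06 for gngt1 to gnat1 (two-sided exact permutation p = 0.8, adjusted 0.84) and -0.06 for sagb to saga (two-sided exact permutation p = 0.2, adjusted 0.233). Between sf3b1 MO and control MO they were 0.85 and -0.58, each at the smallest exact permutation p of 0.1 (adjusted 0.124).

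The catalytic phosphodiesterase genes are given as values alone with As2S2, since pde6b was under 1 FPKM there. The ratio of pde6a to pde6b was 4.62, 13.0 and 5.35 in sf3b1 MO + As2S2, 1.63, 1.5 and 1.41 in sf3b1 MO, and 1.65, 1.16 and 1.87 in control MO. All As2S2 libraries were above the others, the second of them far above, and that library held pde6b at only 0.164 FPKM. The mean log2 ratios of sf3b1 MO and control MO differed by -0.02 (two-sided exact permutation p = 0.9, adjusted 0.9).

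**Figure D3:**
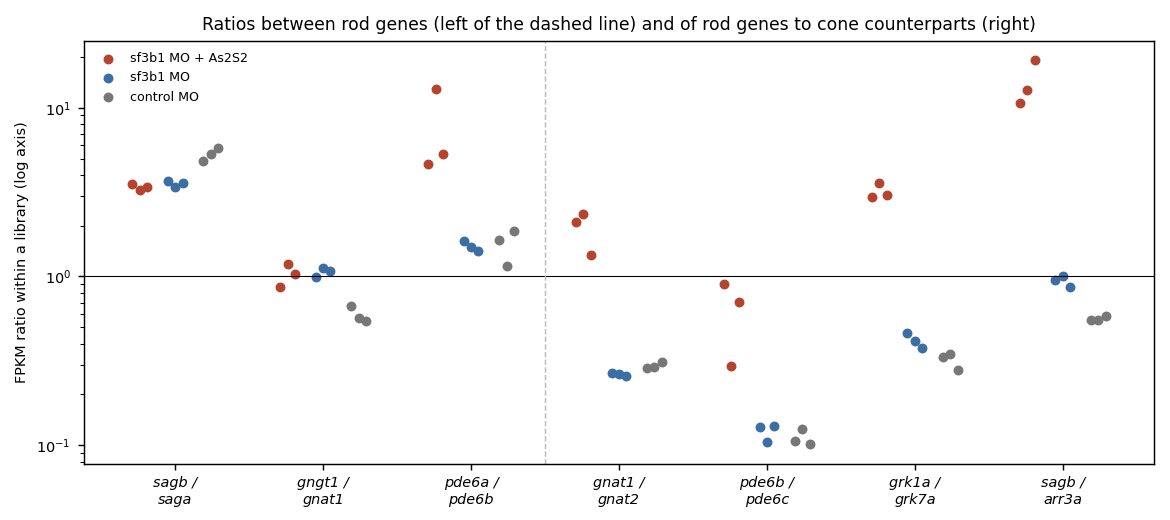
FPKM ratios within each library (points, log axis), for 3 pairs of rod genes left of the dashed line and for 4 rod genes over their cone counterparts right of it, by group. Every As2S2 point right of the line lies above the sf3b1 MO and control MO points, from 0.296 for pde6b to pde6c up to 19.2 for sagb to arr3a. The pairs were picked after the values were seen, and pde6b, pde6c, grk1a, grk7a and arr3a were under 1 FPKM in each As2S2 library. Ratios not drawn went either way. With As2S2, gngt1 to gngt2a and grk1a to grk7b were lowest, and gngt1 to gngt2b and sagb to arr3b were highest.

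Set against single cone genes, picked after their values were seen, the rod genes stood higher with As2S2 in some ratios and lower in others. gnat2, the cone transducin alpha gene, averaged 1.95 ± 0.385 FPKM in sf3b1 MO + As2S2, 126 ± 4.65 FPKM in sf3b1 MO and 130.3 ± 2.23 FPKM in control MO (SD, n = 3 each), or 1.54% of its sf3b1 MO mean with As2S2. The ratio of gnat1 to gnat2 was 2.1, 2.36 and 1.34 in sf3b1 MO + As2S2, 0.268, 0.265 and 0.258 in sf3b1 MO, and 0.288, 0.29 and 0.31 in control MO. pde6c, the cone catalytic subunit gene, stood at 1.78% of its sf3b1 MO mean, and the ratio of pde6b to pde6c was 0.9, 0.296 and 0.703 in sf3b1 MO + As2S2 and 0.128, 0.105 and 0.13 in sf3b1 MO. The cone kinase gene grk7a and the cone arrestin gene arr3a, both chosen after their values were seen, stood at 1.89% and 0.734% of their sf3b1 MO means. grk1a to grk7a was 2.97, 3.6 and 3.05 in sf3b1 MO + As2S2, against 0.461, 0.417 and 0.378 in sf3b1 MO, and sagb to arr3a was 10.6, 12.7 and 19.2 in sf3b1 MO + As2S2, against 0.947, 1.01 and 0.867 in sf3b1 MO. In none of these 4 ratios did an As2S2 library overlap an sf3b1 MO library. The differences in mean log2 ratio were 2.83, 2.25, 2.94 and 3.87, in the order given. Each was at the smallest exact permutation p of 0.1 (adjusted 0.124), which does not pass the threshold. As pde6b, pde6c, grk1a, grk7a and arr3a were under 1 FPKM in each As2S2 library, the ratios holding them are description only. Other cone sister genes, compared with no test, gave both pictures. The ratio of gngt1 to gngt2a, a cone transducin gamma gene that stood at 31.6% of its sf3b1 MO mean, was 0.66, 0.435 and 0.449 in sf3b1 MO + As2S2, 1.59, 1.44 and 1.5 in sf3b1 MO, and 7.66, 6.45 and 5.98 in control MO. The ratio of grk1a to grk7b, a second cone kinase gene at 58.8% of its sf3b1 MO mean, was likewise lowest with As2S2, at 0.496, 0.395 and 0.591, against 1.71, 1.97 and 2.25 in sf3b1 MO. With gngt2b and arr3b as the cone genes the As2S2 ratios were the highest, at 0.496 to 1.18 for gngt1 to gngt2b and 8.56 to 15.6 for sagb to arr3b in sf3b1 MO + As2S2, against 0.0989 to 0.103 and 1.92 to 2.34 in sf3b1 MO. Between sf3b1 MO and control MO, the mean log2 ratio of sagb to arr3a differed by 0.74, where control MO had ratios of 0.55, 0.554 and 0.587. Those of gnat1 to gnat2, pde6b to pde6c and grk1a to grk7a differed by -0.17 to 0.40. The ratios compared with no test were separate between these groups. Those of gngt1 to gngt2a, grk1a to grk7b and sagb to arr3b were lower in sf3b1 MO than in control MO, and that of gngt1 to gngt2b was higher.

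Duplicated sister genes of the rod set had differing values. rom1b, sister of rom1a, stood at 8.5% of its sf3b1 MO mean with As2S2. It averaged 2.06 ± 1.1 FPKM in sf3b1 MO + As2S2 and 24.2 ± 0.862 FPKM in sf3b1 MO (SD, n = 3 each). Its relative log2 fold change was -2.90 (limma adjusted p = 3.2e-06), beside -1.72 for rom1a, which was under 1 FPKM in each As2S2 library. In sf3b1 MO against control MO, rom1b was called higher by counts (0.20, edgeR adjusted p = 0.016) and rom1a was not called. The difference between rom1a and rom1b was not tested. grk1b, sister of grk1a and in zebrafish a kinase gene of cones, was listed at 0 in 2 As2S2 libraries and at 0.0591 FPKM in the third, against 8.16, 8.52 and 7.89 FPKM in sf3b1 MO and 11.9, 11.7 and 12.5 FPKM in control MO. Unlike grk1a, it was also called lower in sf3b1 MO against control MO, by counts (-0.53, edgeR adjusted p = 7e-05); the difference between the sisters was not tested. pde6gb, sister of pde6ga, was 43.5, 39.8 and 43.5 FPKM in sf3b1 MO + As2S2, 49.6, 48.4 and 50.9 FPKM in sf3b1 MO, and 47.5, 48.5 and 52.9 FPKM in control MO. It was called lower with As2S2 against sf3b1 MO (limma adjusted p = 0.0035), but relative to the median gene the change was -0.02, and after centring it was not called (limma adjusted p = 0.99). How the authors' counting divided reads between such sister genes is not stated in the labels, so their separate levels are uncertain to that extent.

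The transcription factor genes of the rod program had courses other than that of the light-response genes. crx, the homeobox factor of all photoreceptors, averaged 155 ± 4.35 FPKM in sf3b1 MO + As2S2, 191 ± 8.59 FPKM in sf3b1 MO and 124 ± 1.23 FPKM in control MO (SD, n = 3 each). It was called lower with As2S2 against sf3b1 MO at only -0.10 relative to the median gene (limma adjusted p = 6.8e-05; not called after centring, adjusted p = 0.12), and higher against control MO (0.57, limma adjusted p = 3e-05). nrl, the factor that sets rod fate in mouse, was near the filter, at 1.09 ± 0.505 FPKM in sf3b1 MO + As2S2, 1.01 ± 0.392 FPKM in sf3b1 MO and 1.36 ± 0.124 FPKM in control MO. It passed no test: the limma adjusted p was 0.86 with As2S2 against sf3b1 MO and 0.36 against control MO, and the edgeR adjusted p was 0.32 for sf3b1 MO against control MO. nr2e3, by contrast, was highest in sf3b1 MO + As2S2, intermediate in control MO and lowest in sf3b1 MO, with no overlap among the 3 groups.

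Further regulators of photoreceptor genes differed among themselves. otx5 and samd7, chosen after their values were seen, were highest with As2S2. otx5, a homeobox gene of the crx family, averaged 98.7 ± 4.1 FPKM in sf3b1 MO + As2S2, 73.3 ± 3.23 FPKM in sf3b1 MO and 60.2 ± 4.69 FPKM in control MO (SD, n = 3 each; 0.63 against sf3b1 MO, limma adjusted p = 0.00013). samd7, whose mouse counterpart acts in gene silencing in rods, averaged 25.7 ± 2.13 FPKM in sf3b1 MO + As2S2, 14.6 ± 2.31 FPKM in sf3b1 MO and 11.3 ± 0.712 FPKM in control MO (0.98 against sf3b1 MO, limma adjusted p = 0.00012). neurod1, a basic helix-loop-helix factor, had its lowest FPKM with As2S2, at 159 ± 2.26 in sf3b1 MO + As2S2, 191 ± 3.24 in sf3b1 MO and 172 ± 2.53 in control MO. Relative to the median gene it changed little, by -0.055 against sf3b1 MO and 0.143 against control MO. samd11, a relative of samd7 chosen after its values were seen, averaged 11.8 ± 0.713 FPKM in sf3b1 MO + As2S2, 15.1 ± 1.11 FPKM in sf3b1 MO and 12.4 ± 0.287 FPKM in control MO. Its relative changes were -0.130 and 0.175, and its As2S2 and control MO libraries overlapped. In sf3b1 MO against control MO, otx5 and samd7 were called higher by counts (log2 fold change 0.31 for otx5 and 0.43 for samd7), as was crx (0.65), whereas nr2e3 was called lower.

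**Figure D4:**
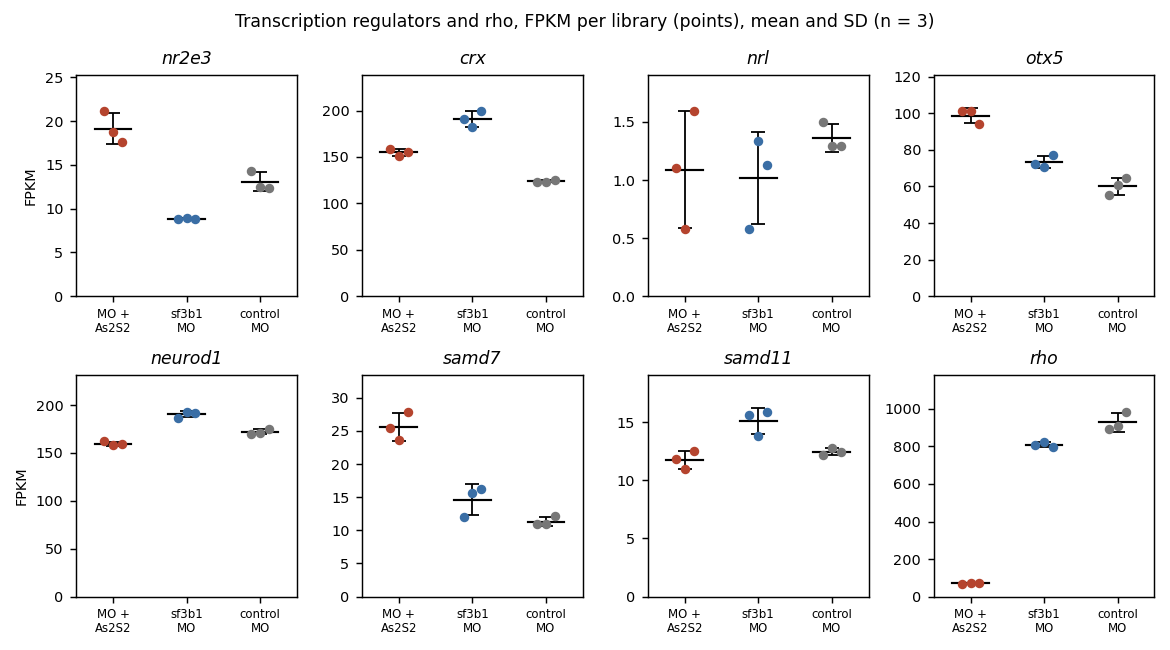
FPKM of nr2e3, 6 other transcription regulators of photoreceptors and the rod opsin gene rho in each library (points), with mean and SD of the 3 libraries of a group; each panel has its own linear axis from 0. nr2e3, otx5 and samd7 are highest in sf3b1 MO + As2S2, whereas rho is lowest there, at 68.3 to 72.3 FPKM.

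Other rod genes and genes shared by rods and cones were listed as well, 60 symbols with 45 found. With As2S2 against sf3b1 MO, 39 of 44 tested were called lower and 2 higher (32 and 4 after centring), beside 44.6% and 17.3% of all genes. Their median relative log2 fold change was -0.97. Of the 44, 11 were under 1 FPKM in each As2S2 library and entered the test only through the other groups, so their calls are description. rho, which encodes the pigment that activates transducin, stood at 8.75% of its sf3b1 MO mean (-3.29, limma adjusted p = 2.5e-12), lower than any of the 10 genes on this scale. gnb1a, a transducin beta subunit gene with many uses outside rods, was not called, at 120.4 ± 16.1 FPKM in sf3b1 MO + As2S2 and 116 ± 9.8 FPKM in sf3b1 MO (SD, n = 3 each; limma adjusted p = 0.62; called higher after centring, adjusted p = 0.02). Its counts and FPKM disagreed in direction between sf3b1 MO and control MO, so its level is uncertain. Separated after the values were seen, the 6 transcription regulators of the list (crx, nrl, otx5, neurod1, samd7 and samd11) had 2 called higher and 3 lower, and the remaining 38 had 36 lower and 0 higher. Of the 3 lower regulators, crx, neurod1 and samd11, none was called after centring. In sf3b1 MO against control MO, 22 of 45 list genes were called higher and 9 lower by counts, beside 25.2% and 25.9% of all genes.

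Cone genes had a median of -3.31 with As2S2 against sf3b1 MO, with 22 of 23 tested called lower and 1 higher (20 and 1 after centring), where 44.6% of all genes were called lower. Of these 23, 8 were under 1 FPKM in each As2S2 library and so had to differ, pde6c, grk7a, arr3a and arr3b among them. The summed level of the 24 cone genes found was 148 to 156 FPKM in sf3b1 MO + As2S2, 2064 to 2177 FPKM in sf3b1 MO and 2446 to 2488 FPKM in control MO. Much of the As2S2 sum came from gnb3a, six7, tbx2b and thrb, with means there of 43.5, 31.3, 18.9 and 16.0 FPKM. The summed level of the 10 rod genes was 38.1 to 44.0 FPKM in sf3b1 MO + As2S2, 184 to 199 FPKM in sf3b1 MO and 189 to 197 FPKM in control MO, and nr2e3 made up much of the As2S2 sum. Of the cone genes, opn1lw1 was listed at 0 in each As2S2 library.

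Markers of other tissues took differing courses over the 3 groups. Their calls with As2S2 against sf3b1 MO stand beside 44.6% of all genes called lower and 17.3% higher. Of the 14 lens genes, 12 were called lower with As2S2 against sf3b1 MO and 0 higher (11 and 2 after centring), with summed levels of 1598 to 1626 FPKM in sf3b1 MO + As2S2, 3058 to 3161 FPKM in sf3b1 MO and 4469 to 4499.6 FPKM in control MO. Trunk muscle and posterior body genes summed to 3457 to 3541 FPKM in sf3b1 MO + As2S2, 5026 to 5048 FPKM in sf3b1 MO and 13346 to 13491 FPKM in control MO, with 10 of 12 tested called lower and 0 higher with As2S2 against sf3b1 MO (8 and 1 after centring). A list of head genes, which holds otx2 and six3 genes that the eye uses as well, had 3 of 12 called higher and 4 lower (3 and 2 after centring). Its summed level was 388 to 404 FPKM in sf3b1 MO + As2S2, 345 to 354 FPKM in sf3b1 MO and 287 to 298 FPKM in control MO. Without otx2b, a homeobox gene of forebrain and eye, it was 241 to 252 FPKM in sf3b1 MO + As2S2, 261 to 270.2 FPKM in sf3b1 MO and 216 to 223 FPKM in control MO. No gene of these 3 lists was listed at 0 throughout a group. However, hsf4 of the lens list and hoxc12a of the trunk list were under 1 FPKM in each As2S2 library. Both are among the genes called lower. They entered the test only through the groups without As2S2, so their calls are description. The part of tissue makeup, or of embryo stage, in the change of the rod genes was not tested.

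**Figure D5:**
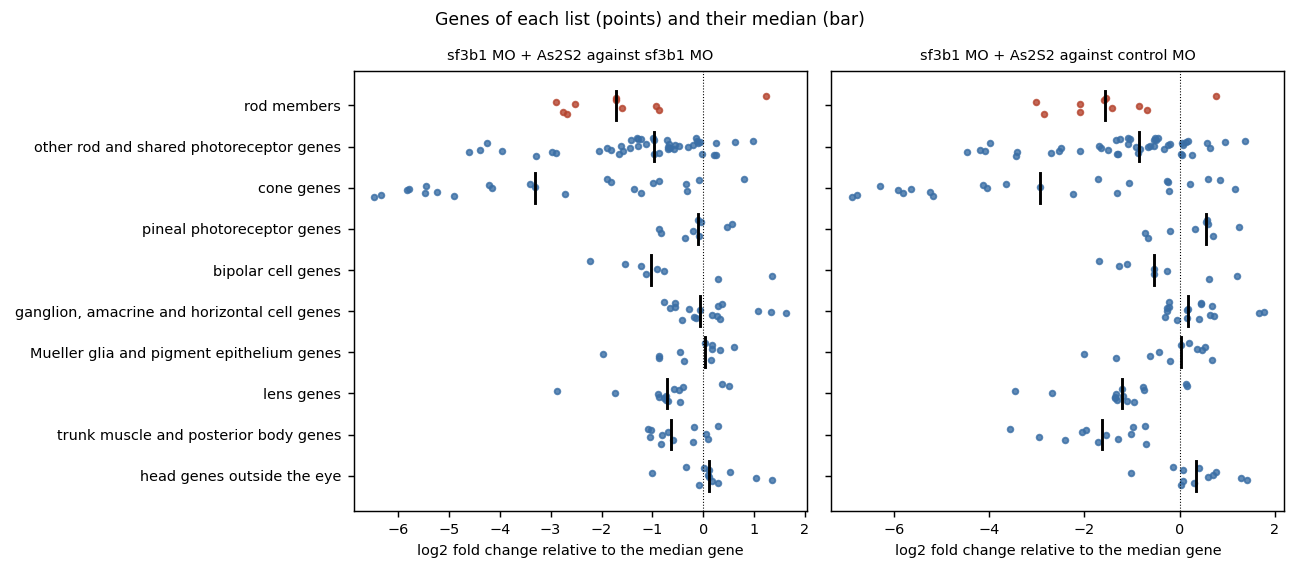
Log2 fold change, as difference from the median gene, of each tested gene of 10 lists (points) and the list median (vertical bar), with As2S2 against sf3b1 MO at left and against control MO at right. At left the median of the rod set is -1.72, or -2.73 with a pseudocount of 0.1 in place of 1. With a pseudocount of 1 it falls between rom1a (-1.724) and grk1a (-1.708), which were under 1 FPKM in each As2S2 library and had to differ. The cone genes have a median of -3.31. Medians of the other lists are given with a pseudocount of 1 only, so -2.73 is not to be set beside them. That pseudocount compresses cone changes too, as 8 of the 23 cone genes tested were under 1 FPKM in each As2S2 library. The list of head genes, some of which the eye uses too, has a median of 0.12.

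The genes closest in course to the rod set were searched among 18013, by the root mean square distance of their centred log2(FPKM + 1) values over 9 libraries from the median course of the 10 rod genes. ppp1r18, a gene of a protein phosphatase regulatory subunit, came first, at a distance of 0.0581, with 0.233 ± 0.0482 FPKM in sf3b1 MO + As2S2, 3.83 ± 0.208 FPKM in sf3b1 MO and 3.24 ± 0.109 FPKM in control MO (SD, n = 3 each). elovl4b, a gene of fatty acid elongation, followed at 0.0613, with 16.8 ± 0.54 FPKM in sf3b1 MO + As2S2, 64.4 ± 1.28 FPKM in sf3b1 MO and 61.1 ± 0.63 FPKM in control MO. The next were si:dkey-7n6.2 (0.0878), ABCA7 (0.103) and camk1ga (0.104). Within the set itself, grk1a (0.0528), rom1a (0.0612) and pde6b (0.129) were nearest to the median course, and nr2e3 was farthest, at 1.29. The course is the median of the 10 rod genes themselves, so some of them had to lie near it. grk1a, rom1a and pde6b were under 1 FPKM in each As2S2 library. A pseudocount of 1 compresses changes at such levels, as it does for ppp1r18, so a small distance need not mean a like fold change.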

How the data were processed

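All values came from 1 deposited table. Per the file headers it holds the authors' counts per gene for 6 libraries, headed wt and ko and taken as control MO and sf3b1 MO, their FPKM for 9, and their log2 fold changes and adjusted p-values for the same 6. Per the submitters' processing notes, fastp 0.22.0, DESeq2 and GRCz11 were used; aligner and counter: not given in the sources used here. As2S2 values exist for 20146 of 21109 features, so those columns may have been normalized separately. Counts were tested with edgeR 4.0.16 (quasi-likelihood, TMM, robust, default filter, which removed 0 genes), and log2(FPKM + 1) with limma 3.58.1 (trend and robust fit to all 9 libraries) where a gene reached 1 FPKM in at least 3 libraries, in R 4.3.3; Benjamini-Hochberg, threshold 0.05. Both procedures were tested on simulated data. Ratios used scipy 1.17.1. DESeq2 1.42.0 was an alternative. Members and lists were chosen with earlier results of these data known. Named were the 10 genes, up to 4 genes a list by mean FPKM, rho, crx, nrl, sister genes, sf3b1 and the 5 nearest courses; others are marked. The table gives no coordinates; promoter sequences were not analysed here. For 1 gene that the rule names, no values are reported here.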

Additional observations from a re-analysis of the deposited data

How the results depend on the processing

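In both As2S2 comparisons, the 6 rod genes at 1 FPKM or more in all libraries kept direction and call in each of 66 values per comparison (the other 4 had to differ and are not counted), under a pseudocount of 0.1, no filter, centring, fits of the compared groups alone, the replicate block and each library left out. In sf3b1 MO against control MO 105 of 110 values did so. The exceptions were gnat1 (3 values, given with its result), pde6b (called without the second control MO library) and pde6ga, whose log2 fold change turned to -0.078 (edgeR adjusted p = 0.841) without the first sf3b1 MO library and reached 0.296 without the third. Rod genes called there numbered 5 with DESeq2, with its size factors and with no filter, 4 with limma on FPKM, and 4 to 6 with a library left out. Over all genes, calls with a library left out ranged from 10293 to 10492 (As2S2 against sf3b1 MO, 11146 with all), 11043 to 11578 (against control MO, 12269) and 9256 to 9929 (sf3b1 MO against control MO, 10592).

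Libraries of the same number did not deviate together (correlations from -0.072 to 0.0416), so the numbers were not taken as pairs. With the replicate block, calls were 10946, 12064 and 10220 in the same order, with 5 rod genes in the last. The As2S2 calls of the 6 rod genes at 1 FPKM or more in all 9 libraries were kept. Low FPKM limits pde6ga and pde6b most with As2S2, where depth is unknown: in the sf3b1 MO libraries only 19.6% of 56 low values fell within 0.1 of a whole read, so reads could not be recovered.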

Other observations

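Genes listed as markers of inner retinal neurons, Mueller glia and pigment epithelium showed mixed courses with As2S2. The RNA was bulk, so the cells that gave these transcripts, in or outside the eye, are not known. Of all genes tested against sf3b1 MO, 44.6% were called lower and 17.3% higher. The counts below for ganglion, amacrine and horizontal cells, and for glia and pigment epithelium, are not far from these shares. The bipolar signalling genes gnao1b and trpm1b, a G protein subunit and a channel of the response to photoreceptor transmitter, were lower: gnao1b stood at 21.6 ± 0.0994 FPKM in sf3b1 MO + As2S2 and 74.9 ± 4.75 FPKM in sf3b1 MO (SD, n = 3 each; relative log2 fold change -1.54, limma adjusted p = 1.5e-09), and trpm1b at 17.5 ± 1.5 FPKM in sf3b1 MO + As2S2 and 39.0 ± 0.973 FPKM in sf3b1 MO (-0.91, limma adjusted p = 7.7e-07). Of 8 bipolar genes tested, 6 were called lower and 1 higher (6 and 2 after centring). Among the lower ones, nyx was under 1 FPKM in each As2S2 library and had to differ. Of 17 genes of ganglion, amacrine and horizontal cells, 9 were called lower and 3 higher (7 and 7 after centring), with gad1b, a GABA synthesis gene, at -0.66 and lhx1a, a horizontal cell factor, at 0.37. The 9 include gja10b, which was under 1 FPKM in each As2S2 library and had to differ. Of 11 genes of Mueller glia and pigment epithelium, 6 were called lower and 2 higher (5 and 5 after centring), with the filament gene gfap at -0.86 and the pigment gene dct at 0.61.

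Pineal photoreceptors, which share crx and much of the rod pathway, have markers of their own. With As2S2 against sf3b1 MO, 6 of 9 pineal genes were called lower and 1 higher (3 and 2 after centring), beside 44.6% and 17.3% of all genes. Against control MO the balance was the other way, with 5 called higher and 3 lower (6 and 2 after centring), beside 19.5% and 48.6% of all genes. exorh, the pineal opsin gene, averaged 5.84 ± 0.946 FPKM in sf3b1 MO + As2S2, 9.07 ± 0.305 FPKM in sf3b1 MO and 11.8 ± 0.457 FPKM in control MO (SD, n = 3 each), or 64.3% of its sf3b1 MO mean with As2S2 (-0.37, limma adjusted p = 0.00052). aanat2, the melatonin synthesis gene, averaged 6.58 ± 1.22 FPKM in sf3b1 MO + As2S2, 8.22 ± 0.509 FPKM in sf3b1 MO and 4.49 ± 0.69 FPKM in control MO. It was not called against sf3b1 MO (limma adjusted p = 0.064) and was called higher against control MO (0.71, limma adjusted p = 0.0079).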
